A study of Mus musculus with 2 samples.

Results

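The acute-phase protein genes are described here in tumours grown from Panc02 cells, an established mouse pancreatic carcinoma line. The set holds 10 genes, Saa1, Saa2, Saa3, Saa4, Hp, Hpx, Serpina3n, Lrg1, Orm1 and Lcn2, out of 28785 genes with a probe on the array. Each probe was taken where the array's gene name was that of a member. This found 9 of the 10, and Hpx, which the array carries under its older name Hpxn, was found through its RefSeq accession. The members were chosen by name, with their measured differences between the 2 housings already known, so those differences are a description and carry no test.

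C57BL/6 mice entered either ordinary caging (standard environment) or housing with more stimulation (enriched environment) at 3 weeks of age, received Panc02 cells under the skin in both groups, and stayed in that housing for 5 weeks more. For each housing, RNA from the tumours of 6 mice was combined and read on 1 single-colour (Cy3) array, and these are called the standard and the enriched pool below. There were no replicates, no spread between mice was measured and no test between the housings was possible. The carcinoma markers Krt8 and Krt18 were well above background in both pools, at levels of 5.19 and 6.47 in the standard and 7.33 and 8.05 in the enriched pool. The pools also differed in other tissues' transcripts. The skeletal muscle list of 15 genes took 4.56% of the summed probe intensity in the standard pool and 0.102% in the enriched pool, with a median difference of -7.92, led by Ckmt2 at -9.11, Ckm at -8.56 and Myh2 at -8.47. The erythroid list had a median of -5.45 over 7 genes, led by Slc4a1 at -7.40, and Epb4.2 was measured in the standard pool only, at least 12.9-fold brighter there. The 10 reference genes had a median of 0.24, with 0 of them at least 2-fold apart. The part of such differences in the results below was not tested. A level is the log2 intensity of a probe minus that of the 75th percentile on the same array. Differences are enriched minus standard. In tumour tissue, fewer cells of a type and less RNA per cell cannot be told apart.

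In the acute-phase response, the cytokines interleukin 6, interleukin 1 and tumour necrosis factor raise the output of a group of plasma proteins, mainly in hepatocytes, through the transcription factors STAT3, NF-kappaB and C/EBP. Several of these genes are also switched on outside the liver, in macrophages, adipocytes, epithelia and fibroblasts. Saa3 is the mouse serum amyloid A gene best known for expression outside the liver. Orm1, Hpx and the albumin gene are, by contrast, mostly hepatocyte products.

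The enriched pool was higher in the serum amyloid A genes, in Hp, in Serpina3n and in Lrg1, and nearly level with the standard pool in Hpx, Orm1 and Lcn2. Of the 9 members well above background in both pools, 6 were at least 2-fold higher in the enriched pool and 0 were lower by that much. Saa4, the tenth, was well above background in the enriched pool only. Of all 20852 measured genes, 5.71% were higher by that much and 9.46% lower, shares that are given as the background and not as support, since this contrast chose the members. The median difference was 2.29 over the 9 members and 0.03 over all measured genes. The members fall into 2 groups with a gap between them. The smallest difference in the upper group was 2.13, for Saa1, and the largest in the lower group was 0.30, for Hpx.

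**Figure D1:**
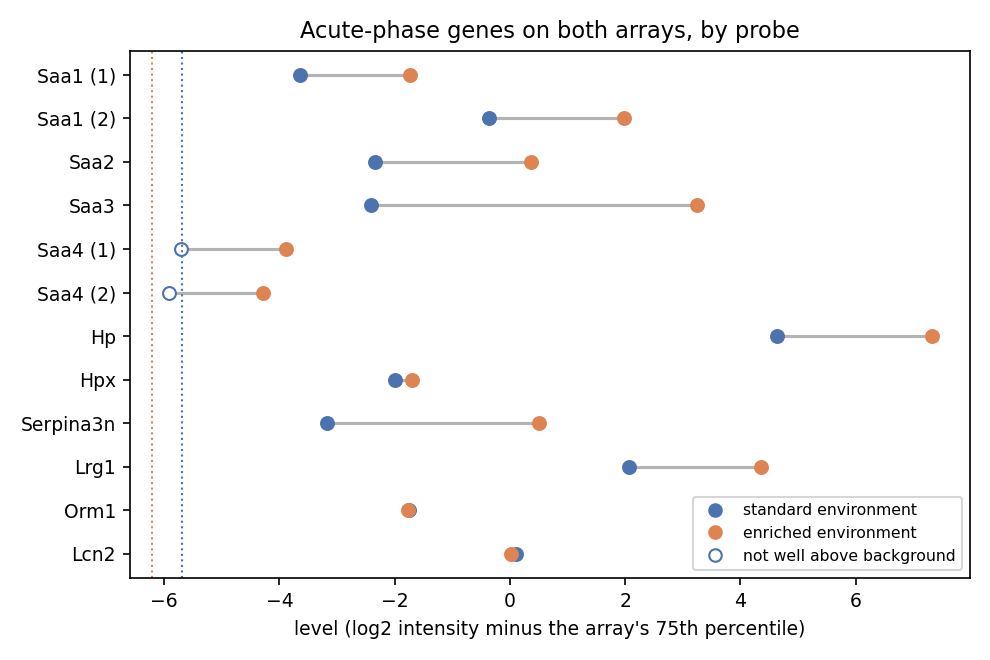
Level of each member's probes (horizontal axis, log2 intensity minus the array's 75th percentile) in the standard (blue) and enriched pool (orange), 1 array each, with dotted lines at the lowest level well above background on each array and open points for spots not well above background. The orange point lies right of the blue point by 1.91 or more for both Saa1 probes and for Saa2, Saa3, Hp, Serpina3n and Lrg1, and almost on it for Orm1 and Lcn2.

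Serum amyloid A proteins are small apolipoproteins that bind high-density lipoprotein and act on leukocyte receptors. Saa3 had a processed intensity of 141 in the standard pool and of 9381 in the enriched pool, over local backgrounds of 38 and 37. Its levels were -2.41 and 3.25, a difference of 5.67, or 50.8-fold, the highest of all 20852 measured genes. Saa2, an apolipoprotein of the liver acute phase, gave intensities of 149 and 1266, levels of -2.34 and 0.36, and a difference of 2.70 (6.50-fold). Saa1, its close relative, was measured by 2 probes. The brighter probe gave intensities of 587 and 3875 and a difference of 2.34, and the dimmer one gave 59.9 and 295 and a difference of 1.91, so that the probes differed with an SD of 0.30 around a mean of 2.13 (4.36-fold). Saa4, which encodes a form that is made constitutively in the liver, had 2 probes at 14.4 and 12.4 in the standard pool, not well above background, and at 66.5 and 50.5 in the enriched pool. It was at least 3.03-fold brighter in the enriched pool, where the lowest level well above background on the standard array, -5.68, stands for the unmeasured level. All 4 genes were thus brighter in the enriched pool, Saa3 by far the most.

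The probes of the SAA genes cannot be assumed to read separate transcripts. The array's own annotation lists a Saa1 transcript beside that of Saa3 for the Saa3 probe, on chromosome 7 from 42888862 to 42888921 in the mm7 build. RefSeq gives Saa1 and Saa2 as synonyms of each other. The Saa1 and Saa2 probes lie at 42916901 to 42916960, 42916998 to 42917470 and 42930366 to 42930425 on the same chromosome, and the Saa4 probes at 42904493 to 42904552 and 42905591 to 42905650. The difference of the Saa3 probe, 5.67, lay more than 3 log2 units above the 2.34 and 1.91 of the Saa1 probes. Whether any of these probes reads the transcript of another SAA gene was not tested, since probe sequences were not used here. A further probe between the Saa4 and Saa1 probes, at 42911087 to 42911575, is annotated only as a putative serum amyloid A transcript. It had intensities of 7.08 and 36.2 and was well above background in the enriched pool only. It was singled out after its values were seen.

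The 4 SAA genes are neighbours in RefSeq's gene order, and the genes beside them were close to level or lower. Of the 5 measured genes on each side, 0 were at least 2-fold higher, with a median of -0.09. Saal1, which adjoins Saa3, differed by 0.37, and Hps5, which adjoins Saa2, by -0.16. The furthest were Otog, at -1.14, Ush1c, at -0.97, and Ldha, the lactate dehydrogenase A gene, at -0.97. Over all measured genes, 5.71% were at least 2-fold higher and 9.46% lower. These shares are the background for this count and for every later count of genes past 2-fold. The SAA genes were chosen with their differences known, so their place above these 10 neighbours is a description only.

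**Figure D2:**
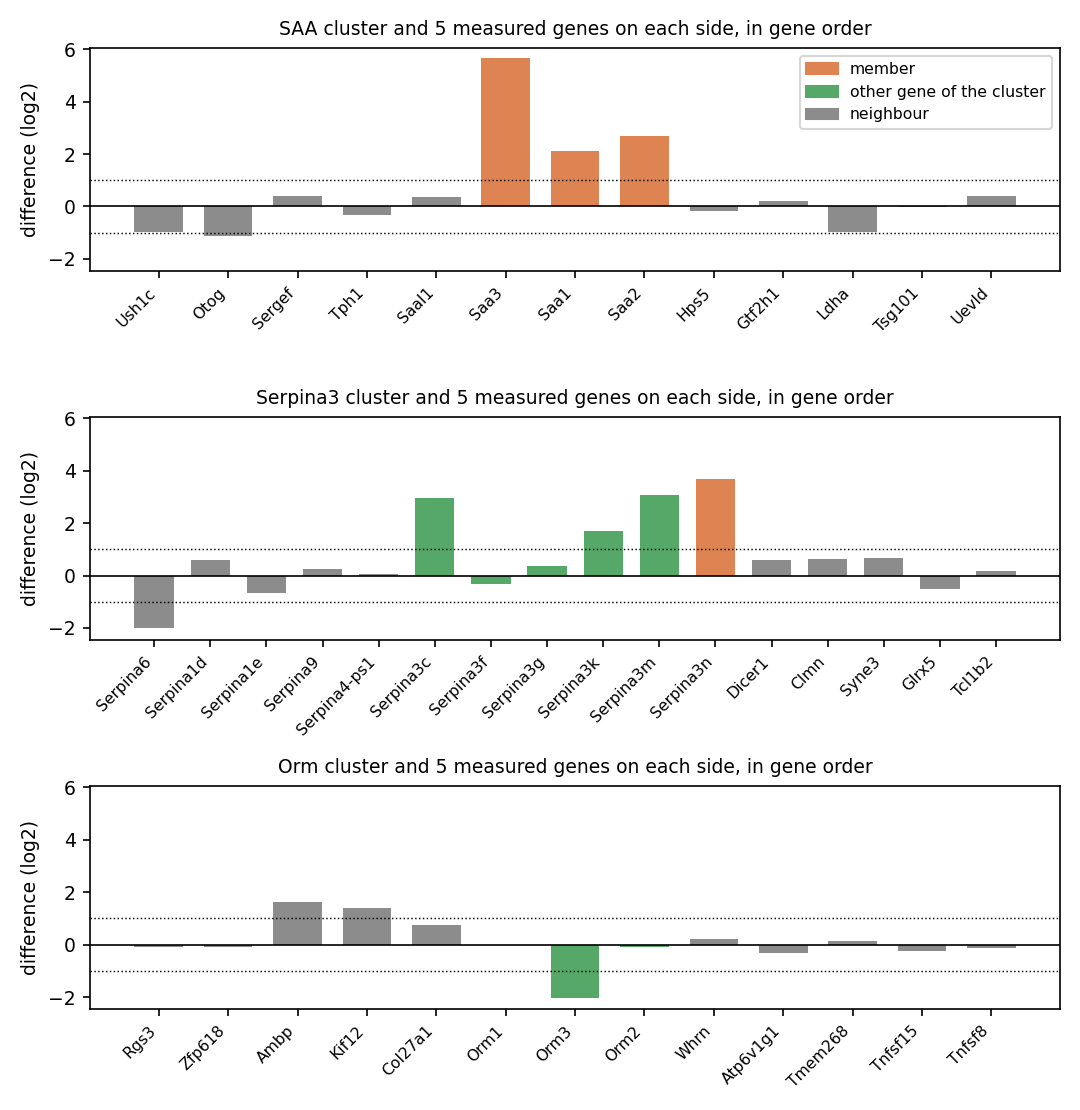
Difference (vertical axis, log2, enriched minus standard environment, 1 array each) of the SAA, Serpina3 and Orm genes measured on both arrays (orange members, green other genes of the cluster) and of the 5 nearest measured genes on each side (grey), in RefSeq gene order and not to scale, with dotted lines at 2-fold. Saa3 stands at 5.67 and the Serpina3 genes c, m and n near 3 or above, while the grey bars of these 3 loci stay between -2.02 and 1.63.

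The promoters of the 3 SAA genes with the clearest values are printed because the separate windows of Saa1 and Saa2 are nearly alike and that of Saa3 differs. Each is the 250 bases before the start given by RefSeq in GRCm38.p6, written 5′ to 3′ in the direction of the gene, with matches to the searched letters in capitals. Saa3 lies on the minus strand at chr7:46715677-46715926, Saa1 on the minus strand at chr7:46742981-46743230 and Saa2 on the plus strand at chr7:46751583-46751832.
Saa3: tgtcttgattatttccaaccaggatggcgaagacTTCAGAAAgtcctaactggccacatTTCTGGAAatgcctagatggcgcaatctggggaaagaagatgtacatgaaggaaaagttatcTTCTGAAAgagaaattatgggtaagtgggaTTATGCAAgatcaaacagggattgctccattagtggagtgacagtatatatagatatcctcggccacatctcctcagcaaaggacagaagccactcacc
Saa1: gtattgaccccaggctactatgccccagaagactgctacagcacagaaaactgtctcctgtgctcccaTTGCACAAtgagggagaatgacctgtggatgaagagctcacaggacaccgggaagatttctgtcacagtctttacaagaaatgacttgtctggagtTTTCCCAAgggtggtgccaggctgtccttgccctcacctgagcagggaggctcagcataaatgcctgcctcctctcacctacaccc
Saa2: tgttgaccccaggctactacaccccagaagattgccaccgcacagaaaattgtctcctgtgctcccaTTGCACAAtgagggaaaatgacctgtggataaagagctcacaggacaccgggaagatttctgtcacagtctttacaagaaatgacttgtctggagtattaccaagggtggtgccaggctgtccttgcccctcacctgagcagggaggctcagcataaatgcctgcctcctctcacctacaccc
In a global alignment, the Saa1 and Saa2 windows were 94.8% identical, with 238 identical bases and 2 gapped positions, whereas Saa3 was 48.2% identical to Saa1 and 48.0% to Saa2. For scale, the windows of Saa1 and Lcn2, genes of different families, were 52.6% identical. Searched on both strands were TTNNGNAA, a loose form of the C/EBP motif, a loose form of the NF-kappaB motif (GGG and TTCC with 3 bases of any kind between them), TTCNNNGAA, the STAT motif, and TATAAA. All capitals in these 3 windows are C/EBP-type matches. Saa3 has 4, the one nearest the start, TTATGCAA, at bases -99 to -92, counted back from -1 just before the start. Saa1 and Saa2 share TTGCACAA at -182 to -175 and -183 to -176, and Saa1 has a second match, TTTCCCAA, at -86 to -79. The same C/EBP-type letters stand in 40.7% of all 32851 promoter windows of 300 bases in the table, so a match is common. A match is a description of letters and not a measured binding site.

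Haptoglobin and haemopexin take up haemoglobin and haem released from damaged red cells. Hp, the haptoglobin gene, was bright in both pools, at intensities of 18600 and 156923, with levels of 4.63 and 7.32. Its difference was 2.69 (6.46-fold), the 76th highest of all measured genes, next to that of Saa2 at rank 75. Hpx, the haemopexin gene, was at 189 and 304, with levels of -1.99 and -1.69 and a difference of 0.30 (1.23-fold). The pair thus separated, with Hp far apart between the pools and Hpx within 2-fold. The Hp probe lies on chromosome 8 from 108175404 to 108175463 and the Hpx probe on chromosome 7 from 101648211 to 101648270 in mm7. Of the 10 measured neighbours of each, 1 beside Hp was at least 2-fold higher, Marveld3 at 1.63, and 1 beside Hpx as much lower, Smpd1 at -1.02. The globin genes were lower with enriched housing, Hba-a1 at -5.72 and Hbb-b1 at -5.75, although probes of near-identical globin copies cannot be taken as separate. The receptor genes of the same clearance route were close to level, Cd163, the macrophage receptor for the haptoglobin complex, at 0.40 and Lrp1, the receptor for the haemopexin complex, at -0.28. Hmox1, the inducible haem oxygenase gene, was at 1.24 and 1.96, a difference of 0.73.

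Serpina3n encodes a secreted inhibitor of serine proteases, among them granzyme B. Its intensity was 83.1 with standard and 1404 with enriched housing, with levels of -3.18 and 0.51 and a difference of 3.69 (12.9-fold), the 18th highest of all measured genes. The probe lies on chromosome 12 from 101908030 to 101908089 in mm7. Serpina3n belongs to a cluster of closely related genes, and 5 others of the cluster were measured on both arrays. Serpina3m, which adjoins it, was at -1.76 and 1.31, a difference of 3.07 (8.42-fold). Serpina3c was at -3.70 and -0.74, a difference of 2.96 (7.80-fold), and Serpina3k was at -5.16 and -3.45, a difference of 1.70. Serpina3k had a second probe well above background in the enriched pool only, and its difference was 0.53 with the normexp background correction, below 2-fold. Serpina3g and Serpina3f, which lie between Serpina3c and Serpina3k in gene order, differed by 0.38 and -0.32. Serpina3a and Serpina3b were not well above background on either array. The list of members' paralogues also holds other lipocalins. Of its 12 measured genes, 5 were higher by 2-fold or more and 1 lower, against 5.71% and 9.46% of all measured genes. The list's median was 0.14, and its sign turned without the filter on dim probes. The lipocalin genes Rbp4 and Ptgds were at 1.53 and 1.23, and Lcn8 was measured in the standard pool only, at least 8.44-fold brighter there. The cluster was thus not even, with 4 genes of 6 measured at least 2-fold higher. The probes' sequences were not used here, so reads of one gene's transcript by another gene's probe were not tested. Of the 10 measured genes around the cluster, 0 were at least 2-fold higher, and Serpina6, the corticosteroid-binding globulin gene, was lower, at 0.24 and -1.77. Gzmb, which encodes granzyme B, differed by 0.49.

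Lrg1 encodes a secreted leucine-rich glycoprotein that modifies transforming growth factor beta signals. It was at intensities of 3139 and 20051, levels of 2.06 and 4.35, and a difference of 2.29 (4.89-fold). Its probe lies on chromosome 17 from 54278087 to 54278146 in mm7. The receptor genes Tgfbr1, Tgfbr2 and Eng, through which it is known to act, differed by 0.09, -0.35 and -0.22. Of its 10 measured neighbours, 2 were at least 2-fold higher, Tnfaip8l1 at 1.12 and Chaf1a at 1.05, and 1 was lower, the fat droplet gene Plin5, at 2.10 and -2.38 (-4.47).

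The Serpina3n and Lrg1 promoters are shown because they alone among the 8 members with a window hold the NF-kappaB-type letters, which stand in 5.56% of all windows. Serpina3n lies on the plus strand at chr12:104406458-104406707 and Lrg1 on the minus strand at chr17:56121947-56122196 in GRCm38.p6, both from RefSeq and with all matches in capitals.
Serpina3n: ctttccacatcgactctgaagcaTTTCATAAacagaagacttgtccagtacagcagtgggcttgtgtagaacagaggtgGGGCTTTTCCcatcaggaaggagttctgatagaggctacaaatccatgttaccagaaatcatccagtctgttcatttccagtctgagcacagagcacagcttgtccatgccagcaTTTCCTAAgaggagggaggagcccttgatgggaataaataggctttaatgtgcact
Lrg1: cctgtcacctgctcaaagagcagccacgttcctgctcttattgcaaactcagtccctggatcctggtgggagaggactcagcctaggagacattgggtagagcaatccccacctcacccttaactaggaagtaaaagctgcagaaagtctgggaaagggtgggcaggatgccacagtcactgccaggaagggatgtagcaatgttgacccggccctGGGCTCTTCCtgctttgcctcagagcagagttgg
The NF-kappaB-type match is GGGCTTTTCC at -171 to -162 in Serpina3n and GGGCTCTTCC at -34 to -25 in Lrg1, while the other 2 runs of capitals in Serpina3n are C/EBP-type. C/EBP-type letters were found in 7 of the 8 windows, all but Lrg1. The matches include those of Hpx and Lcn2, which were nearly level between the pools. Only these 2 of the lower group had a window, and the letters stand in 40.7% of all windows. A link between the letters and the differences was not tested. The STAT letters were found in 0 of the 8 windows and in 8.30% of all windows. TATAAA was found in Lrg1 only, at bases 12 to 17 after the given start, and in 13.6% of all windows. Windows for Hp and Orm1 were not used here.

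Orosomucoid 1 and lipocalin 2 are members of the lipocalin family of small carriers. Orm1, the alpha-1-acid glycoprotein gene, was at intensities of 224 and 290.0, which after scaling are levels of -1.75 and -1.76. Its difference was -0.01 and lay between -0.09 and 0.04 over all 9 alternative processings, so it has no direction. Orm2, its neighbour, was also level at -0.10. Orm3, which lies between them, was at -2.13 and -4.19, a difference of -2.06 (4.16-fold lower in the enriched pool). Whether any of these Orm probes reads the transcript of another Orm gene was not tested. Ambp, a lipocalin plasma protein gene 3 measured genes before Orm1, was at 3.43 and 5.06, a difference of 1.63, and Kif12 beside it differed by 1.38. The Orm1 probe lies on chromosome 4 from 62779145 to 62779752 in mm7.

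Lcn2 encodes neutrophil gelatinase-associated lipocalin, which binds iron-carrying siderophores. It is stored in neutrophil granules and made by stressed epithelia. Its intensities were 811 and 1002, its levels 0.11 and 0.03, and its difference -0.08. The probe lies on chromosome 2 from 32392828 to 32393072 in mm7. Its receptor gene Slc22a17 differed by 0.20, and Mmp9, whose protein it binds, by -0.71. Other granule genes of neutrophils ranged from nearly level to far lower in the enriched pool. Mmp9 and Prtn3, a granule protease gene, were within 2-fold, Prtn3 at -2.28 and -2.93 (-0.65). Ltf, which is stored in the same granules as Lcn2, was at 1.80 and -0.71, a difference of -2.52. Camp and Ngp were well above background in the standard pool only and at least 290.0-fold and 233-fold brighter there, and Elane at least 20.8-fold.

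**Figure D3:**
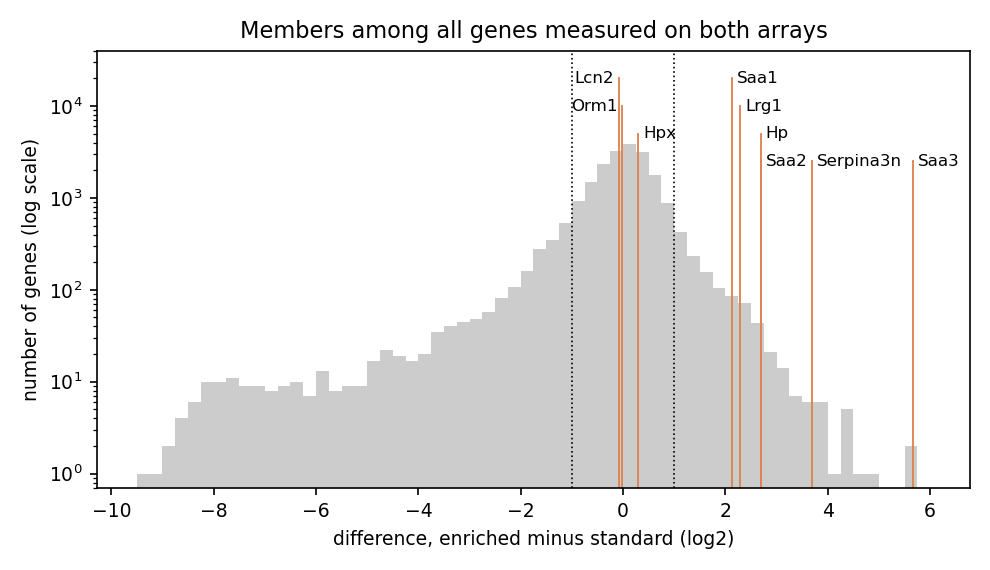
Number of genes (vertical axis, log scale) by difference (horizontal axis, log2, enriched minus standard environment, 1 array each, bins of 0.25) for the 20852 genes measured on both arrays, with the 9 measured members as orange lines and dotted lines at 2-fold. Saa3 at 5.67 lies at the upper end of all genes, Serpina3n at 3.69 near it, the next 4 between 2.13 and 2.70, and Hpx, Orm1 and Lcn2 at the centre.

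The 3 measured genes whose differences over the 2 arrays lay nearest to that of Saa3 were Rhox5, Chl1 and Calcb. Rhox5, a homeobox gene, was at -0.07 and 5.49 (5.56). Chl1, a cell adhesion gene, was at -3.86 and 0.91 (4.77), and Calcb, a neuropeptide gene, at -4.33 and 0.39 (4.72). With 2 arrays this likeness is only that of 1 difference.

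Among other genes of the acute phase, C3, C4b, Cfb, Lbp, Cd14 and Vnn1 were higher and Orm3 and Crp lower in the enriched pool. Of 25 measured genes in a list of 32, 9 were at least 2-fold higher and 3 as much lower. The shares over all measured genes were 5.71% higher and 9.46% lower. The median of the list was 0.60, against 0.03 over all measured genes. Without a filter on dim probes the median was 0.35. The vanin gene Vnn1 was at -0.22 and 2.32 (2.53). The complement gene C4b was at 1.20 and 3.17 (1.98), Il1rn, the interleukin 1 receptor antagonist gene, at -2.48 and -0.82 (1.66), and C3, the central complement component, at 0.96 and 2.48 (1.52). Lbp, which carries bacterial lipopolysaccharide to its receptor, differed by 1.43, and Cd14, that receptor, by 1.16. The complement factor gene Cfb differed by 1.09 and Serping1, the complement C1 inhibitor gene, by 0.81. On the lower side were Orm3, Crp, the C-reactive protein gene, at -4.08 and -5.82 (-1.74), and Itih4 at -1.67 and -2.85 (-1.18). The differences of Crp and Itih4 were within 2-fold with the normexp background correction, at -0.81 and -0.92. Fgb and Apcs, products of the liver, were well above background in the standard pool only, at least 3.03-fold and 2.73-fold brighter there. Fga, Fgg, Hamp and Serpina1b were not well above background on either array. Cp, the ceruloplasmin gene, was bright and level, at 5.87 and 5.70. The metallothionein genes Mt1 and Mt2 differed by 0.60 and 0.52.

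The list of acute-phase cytokines, their receptors and the transcription factors had 28 measured genes, of which 3 were at least 2-fold higher and 0 as much lower. The median was 0.29. Il6, the main inducing cytokine, was at -4.81 and -2.48, a difference of 2.33. Its standard level lay near the lowest level well above background there, -5.68. Nfkbiz, an NF-kappaB cofactor that STAT3 and interleukin signals induce, differed by 1.45. Il1b and Tnf were at 0.98 and 0.68. The signal chain below the cytokines was close to level, Il6ra at 0.05, Il6st at -0.25, Jak1 at 0.04, Jak2 at 0.14, Stat3 at -0.11 and Socs3, a feedback target of STAT3, at 0.31. Cebpb and Cebpd differed by -0.53 and -0.15, Nfkb1 by 0.21 and Rela by 0.47. Most of these mRNAs were within 2-fold of level, as were most measured genes, of which 5.71% were at least 2-fold higher and 9.46% lower. The 6 of 9 measured members past 2-fold were chosen with their differences known. mRNA levels do not show the activity of the proteins in this list. Against the same shares over all genes, 0 of the 20 receptors and partners of acute-phase proteins were at least 2-fold apart in either direction. Their median was 0.07, and its sign turned with the normexp correction, with reference gene scaling and without the filter on dim probes. The furthest were Ager, a receptor of several danger ligands, at 0.98, Hmox1 at 0.73 and Bsg at -0.72, and the serum amyloid A receptor genes Fpr2, Tlr2 and Tlr4 were at 0.52, 0.05 and 0.10. Ager was dim, with a standard level of -5.48, and its difference was 0.06 with the normexp correction.

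Markers of the cells that can make these proteins were compared between the same pools. Of 19 hepatocyte genes with a probe, 9 were measured on both arrays, Fgb in the standard pool only, and 9 on neither, among them the defining genes Alb, Ttr, Apoa1, Apob and F2. The part of hepatocyte RNA in the members' levels was not tested. The whole hepatocyte list took 0.00259% of the summed intensity in the standard and 0.00256% in the enriched pool. Its median of 0.01 has no direction, as it lay between -0.77 and 0.36 over the alternatives. Ahsg, the fetuin gene, was at 0.13 and -3.31, Cyp2e1 at -1.47 and 0.16, and the aminotransferase gene Tat at -1.62 and -3.04.

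Carcinoma epithelium, fibroblast and adipocyte genes were higher in the enriched pool, as were 6 of the measured members, and their part in the members' differences was not tested. For the counts below, 5.71% of all measured genes were at least 2-fold higher and 9.46% lower. All 15 carcinoma epithelium genes were higher, 14 at least 2-fold, with a median of 1.85 and a share of 0.283% of the summed intensity in the standard and 1.16% in the enriched pool. Tff2 was at 2.48, Msln and Muc4 both at 2.43. Set against that median, Saa3 differed by 3.81 more, Serpina3n by 1.84, Saa2 by 0.85, Hp by 0.84, Lrg1 by 0.43 and Saa1 by 0.27, while Hpx, Orm1 and Lcn2 lay -1.56, -1.87 and -1.93 from it. The fibroblast list of 14 genes had a median of 1.78, with 8 at least 2-fold higher, led by Col3a1 at 2.96 and Postn at 2.95, and 3 as much lower, Pdgfrb at -1.18, Dcn at -1.03 and Pdgfra at -1.02, the last 2 of which came within 2-fold under another processing. Its shares were 0.254% and 0.639%. The adipocyte list had a median of 1.51 over 11 genes and shares of 0.258% and 0.545%. Cfd was at 3.11, Retn at 2.96 and Adipoq at 2.40, Lep was well above background in the enriched pool only and at least 9.52-fold brighter there, and the brown fat genes Ucp1 and Cidea were at -8.86 and -5.91. None of the genes in these 3 lists was at or below background in the enriched pool. As reported here, Saa3 and Serpina3n exceeded every gene of these 3 lists measured on both arrays, the furthest of which was Cfd. Lep, known only by its bound, is outside that comparison. With the normexp correction Serpina3n was at 2.97, below Cfd, which was at 3.04 or more under every processing. The other 4 higher members, Saa1, Saa2, Hp and Lrg1, lay within the range of the genes in the 3 lists.

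Neutrophil markers were mostly lower, and macrophage markers were mostly within 2-fold. Of all measured genes, 9.46% were at least 2-fold lower and 5.71% higher. The neutrophil list holds Lcn2, Hp and Lrg1 itself. Without them, 8 of 12 measured genes were lower by 2-fold or more and 1 was higher, with a median of -2.20. The furthest were Mpo at -6.65, Ctsg at -4.67 and Mmp8 at -4.25, while the chemokine receptor gene Cxcr2 was at 1.44, or 0.78 with the normexp correction. Csf3r, another receptor gene, was at 0.61. The shares of the whole list, 0.228% and 0.292%, contain the intensity of Hp. The macrophage list had a median of 0.34 over 13 genes, of which 2 were at least 2-fold higher, Marco at 2.05 and Cd14 at 1.16, with shares of 0.0790% and 0.101%. Of the 13 genes, 10 were above 0. Apart from Marco and Cd14 they ranged from C1qb at -0.11 to Mrc1 at 0.97, with Msr1 at 0.71, Cd68 at 0.13 and Csf1r at -0.04. The part of neutrophil and macrophage RNA in the members' differences was not tested. Endothelial genes had a median of -0.69 over 10 genes, with Flt1 at -1.60, Tie1 at -1.05 and Tek at -0.88, and shares of 0.0372% and 0.0224%.

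**Figure D4:**
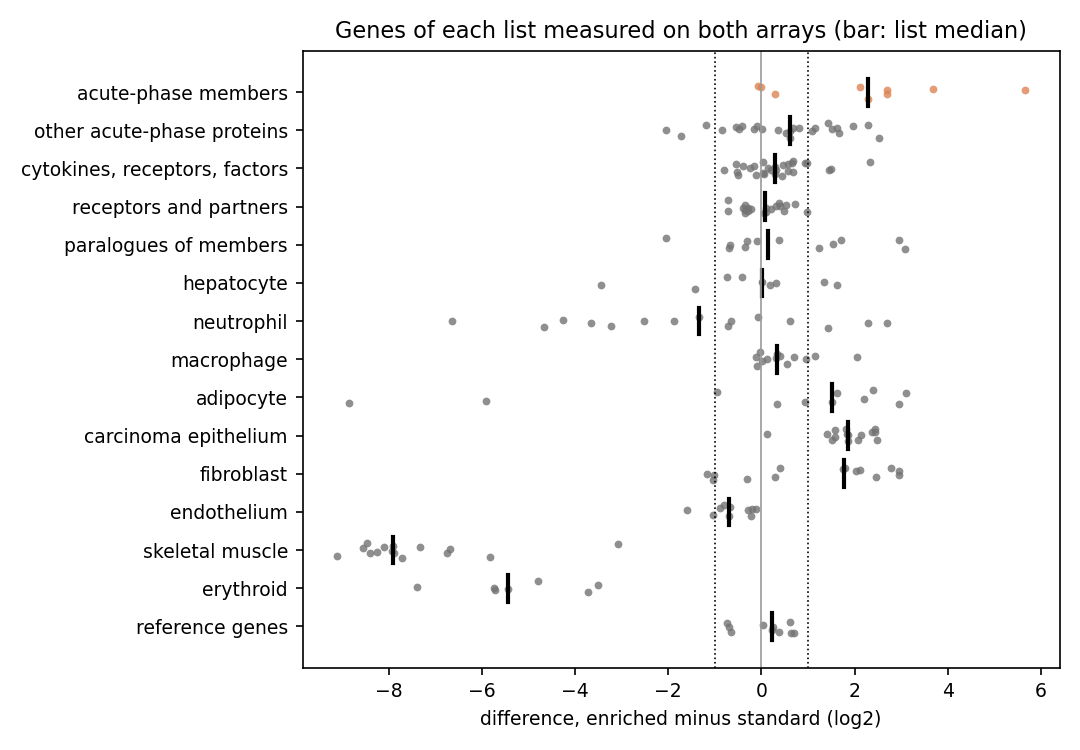
Difference (horizontal axis, log2, enriched minus standard environment, 1 array each) of every gene measured on both arrays in each list, 1 point per gene, with a black bar at the list's median and dotted lines at 2-fold. The 9 members, in orange, have a median of 2.29 and split into 6 at 2.13 or more and 3 between -0.08 and 0.30, while the epithelium list is narrower around 1.85.

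The precision of these values is technical only. The scanner software's error estimate for a member's spot lay between 10% and 11.2% of its intensity, apart from the Saa4 spots. For those it reached 28.1% in the standard pool. The median SD over spots of 1 probe was 0.06 (standard) and 0.07 (enriched), and over the probes of 1 gene the difference varied with a median SD of 0.17. The differences of Hpx, Orm1 and Lcn2, at most 0.30, were of the order of that probe spread. None of the members was saturated, and with 1 probe for 8 of them an error of a single probe could not be seen.

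**Figure D5:**
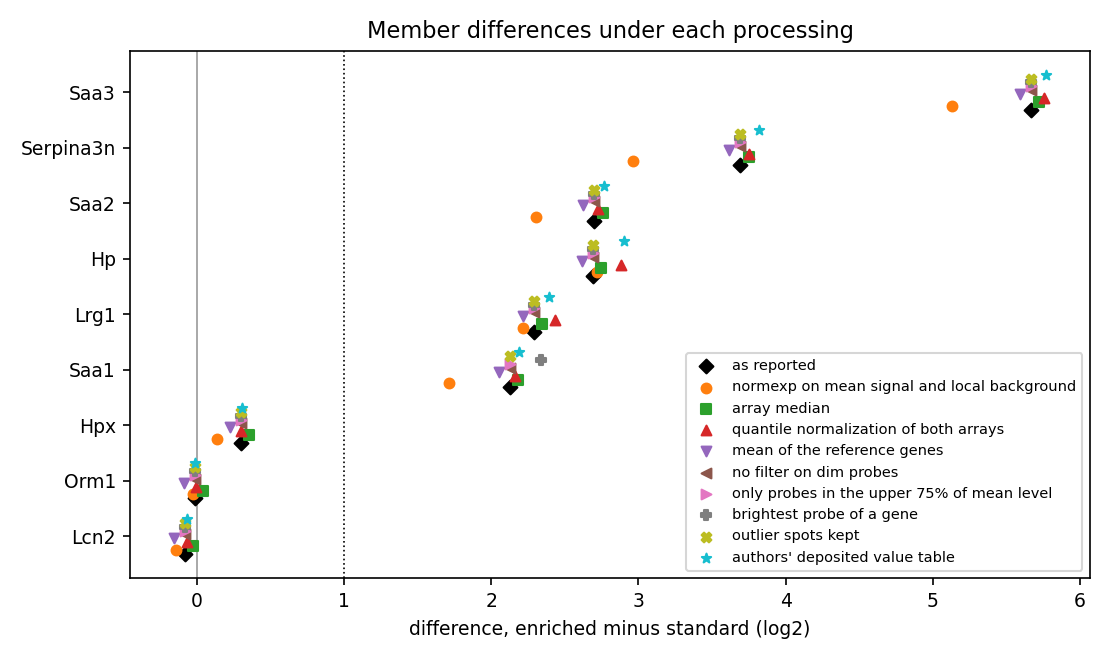
Difference (horizontal axis, log2, enriched minus standard environment, 1 array each) of the 9 measured members as reported (black diamonds) and under 9 alternative processings (coloured symbols), with a dotted line at 2-fold. The 6 higher members stay right of the line under every processing shown, the normexp correction giving Saa3 5.13 and Serpina3n 2.97, and the other 3 stay left of it.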

How the data were processed

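Per the labels, each housing gave 1 pool of tumour RNA from 6 mice, read in Cy3 on an Agilent mouse expression array. The deposited scanner files hold a linear intensity per spot, background-corrected and spatially detrended per the file headers. The submitters' processing notes name Agilent Feature Extraction (version 10.7.1.1). A second deposited table of log2 values for 30319 probes was used as an alternative only. Its columns followed log2 intensity on the same array with r = 1.00 over 30307 probes, with medians of 8.54 and 8.56, so scale and direction match the scanner values, while its scaling and centring are unknown.

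Here, log2 of the processed intensity minus the array's 75th percentile (753 standard, 984 enriched) was used. The 1639 control spots and the outlier spots (66 and 70) were left out. Probes well above background on both arrays were averaged per gene. Of 41174 probes, 22951 were named by RefSeq accession and 18223 kept the file's name. A gene bright on 1 array only is given as "at least N-fold", its bright level set against the higher of its own dim level and the lowest level well above background on the dim array (-5.68 standard, -6.20 enriched). With 1 array per group there is no test, and the differences describe these 2 pools. Genes were counted at an absolute log2 difference of at least 1. Of 43379 spots, 77.2% and 77.4% were well above background, and precision is limited by the number of arrays. Background steps of this kind move dim spots more than bright ones.

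The members, the 15 lists, the motifs and the alternatives were chosen with earlier results of these data known. Named were all members, in each list the 3 genes furthest apart and up to 6 more at least 2-fold apart, genes with bounds of at least 2-fold, the 3 genes nearest to Saa3 in difference, and others where a count or role called for them. Neighbouring genes were added after the data were seen. Of the genes this rule names, 2 are not reported here. Proteins were not compared here. Promoter windows came from RefSeq (GRCm38.p6), and probe positions (mm7) from the array's annotation. Python 3.11.15 and limma 3.58.1 (normexp, offset 50) were used, and the steps were tested on simulated data.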

Additional observations from a re-analysis of the deposited data

How the results depend on the processing

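The 9 alternatives gave 253 further values, of which 228 moved by less than the median SD between probes of a gene (0.17) or, for counts, by less than 1.5 times. No value past 2-fold changed sign. The count of measured members at least 2-fold higher was 6 under each alternative, and 7 without a filter on dim probes, where Saa4 entered at 1.73. Member differences ranged from 5.13 to 5.77 for Saa3, 2.97 to 3.82 for Serpina3n, 2.30 to 2.76 for Saa2, 2.61 to 2.90 for Hp, 2.21 to 2.44 for Lrg1, 1.71 to 2.34 for Saa1, 0.13 to 0.35 for Hpx, -0.09 to 0.04 for Orm1 and -0.16 to -0.02 for Lcn2. With normexp, the medians were -0.20 for the hepatocyte, 1.45 for the fibroblast, -7.69 for the skeletal muscle and -4.81 for the erythroid list, and 668 genes in place of 1191 were at least 2-fold higher. With quantile normalization the hepatocyte median was 0.33 and the neutrophil median -1.07, against 0.01 and -1.33. Without the filter, medians were 0.35 for other acute-phase proteins, -0.33 for the paralogues in place of 0.14, -0.77 for hepatocyte and -2.20 for neutrophil genes, and 3796 genes in place of 1972 were at least 2-fold lower. In the upper 75% of probes by level they were 0.38 for paralogues, -0.74 for hepatocyte and -1.02 for neutrophil genes. In the authors' deposited table they were 0.36 for hepatocyte, -1.09 for neutrophil and -7.72 for skeletal muscle genes. The filters change which genes are measured, and the cause of the other shifts was not tested. The median of all genes moved by -0.10 with normexp and -0.14 without the filter. Of 97 list genes past 2-fold, 87 stayed past it under every alternative that measured them. No paired analysis was possible because each housing had 1 pooled array, and no replicate could be left out for the same reason. Dim signal limits Saa4, Il6, Ager and the hepatocyte genes.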
